A study of Mus musculus with 2 samples.

Results

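The dual-specificity MAP kinase phosphatases studied here were Dusp1, Dusp2, Dusp3, Dusp4, Dusp5, Dusp6, Dusp7, Dusp10 and Dusp16, taken by symbol from a table of raw RNA-seq counts. They are 9 of the 46095 genes in that table, and 8 of them had at least 20 counts over both libraries, as 13363 genes did. The genes were chosen with the difference between these libraries in view, so their values are given as a description. The cells were mouse acute myeloid leukaemia (AML) cells from the bone marrow of C57BL/6 mice aged 8 weeks, sorted as positive for Mac1 and c-Kit. One library is labelled with the genotype P2x7-KO and 1 with the genotype wild type, while the sample titles end in KD and Scr. P2rx7 encodes P2x7, a cation channel opened by ATP. The sources used here do not say how the gene was disrupted or how many mice gave each library.

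Dual-specificity phosphatases of this family switch off MAP kinases by removing phosphate from both the threonine and the tyrosine of the activation loop. Most carry a domain that binds the MAP kinase beside the catalytic domain. Members differ in where they sit and in which kinase they act on: DUSP1, DUSP2, DUSP4 and DUSP5 are nuclear and induced by the pathway they restrain, DUSP6 and DUSP7 are cytoplasmic and prefer ERK, and DUSP10 and DUSP16 prefer JNK and p38. DUSP3 is a small enzyme that acts on ERK and JNK but lacks the kinase-binding domain. By domain it thus belongs with the atypical dual-specificity phosphatases.

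With 1 library for each label there was no replicate, no test was possible, and every interval below is an exact 95% interval that covers counting error only. In bulk RNA of this kind, fewer cells of a type and less RNA per cell cannot be told apart. The P2x7-KO-labelled library held 12435916 counts and the wild type-labelled library 12456212. P2rx7 itself was higher in the P2x7-KO-labelled library, with 543 counts against 229 in the wild type-labelled one (2.27-fold, 1.94 to 2.66). The RNA of the targeted gene was thus not lower under the P2x7-KO label, and the libraries are called by their labels. Counts per gene do not show whether the transcript is intact, so they do not settle the genotype. Itgam (Mac1) and Kit, the sort genes, had 6910 and 861 counts in the P2x7-KO-labelled library, against 2274 and 559 in the wild type-labelled one. Of 12 monocyte and macrophage markers, 10 were counted and 9 were at least 2-fold higher in the P2x7-KO-labelled library, with summed levels of 4306 CPM there and 1257 CPM in the other (CPM, counts per 1000000 after TMM scaling). Of 7 mast cell and basophil markers, 5 were counted and 2 were at least 2-fold lower, with summed levels of 112 against 521 CPM; Fcer1a was at 0 in both. Of 10 neutrophil markers, 1 was higher and 2 were lower, with summed levels of 3262 against 3645 CPM; corrected for transcript length and GC content, 3 were higher and 1 was lower. Of 10 T and NK cell markers 1 was counted, Nkg7, and it was lower (105 against 307 counts). Trac and Ncr1 were at 0 in both libraries, and the other 7 had 1 to 14 counts each in the P2x7-KO-labelled library, against 0 or 1 in the wild type-labelled one. Summed globin and other erythroid markers stood at 11.2 against 1.32 CPM. Counts of other marker genes at least 2-fold higher and lower were 2 and 0 of 3 B lymphoid, 1 and 1 of 2 megakaryocyte, 2 and 0 of 4 dendritic, 1 and 1 of 2 endothelial and stromal, and 0 and 0 of 3 leukaemia genes counted. Over all 13363 genes counted, 10.8% were higher and 8.95% lower by the same rule, given below. With the length and GC correction the shares were 8.34% and 4.74% of 12266 genes.

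Across the family, the inducible nuclear members with enough counts were lower in the P2x7-KO-labelled library, while members of the other classes were lower, higher or not distinguishable. The rule for a call was a scaled ratio of at least 2 in one direction, with an interval that left out 1. By that rule Dusp1, Dusp2 and Dusp5, 3 of the 8 members counted, were lower, beside 8.95% of all 13363 genes counted. None of the 8 was at least 2-fold higher, beside 10.8% of all genes. Nothing is read from these shares, since the genes were chosen on this contrast. The median log2 ratio of the 8 was -0.44, beside 0.005 over all genes counted. Ratios were also corrected for the trend of all genes with transcript length and GC content. With that correction Dusp2 and Dusp5 were past the rule, 2 of 8 lower beside 4.74% of the 12266 genes with those values, and 0 were higher beside 8.34%.

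**Figure D1:**
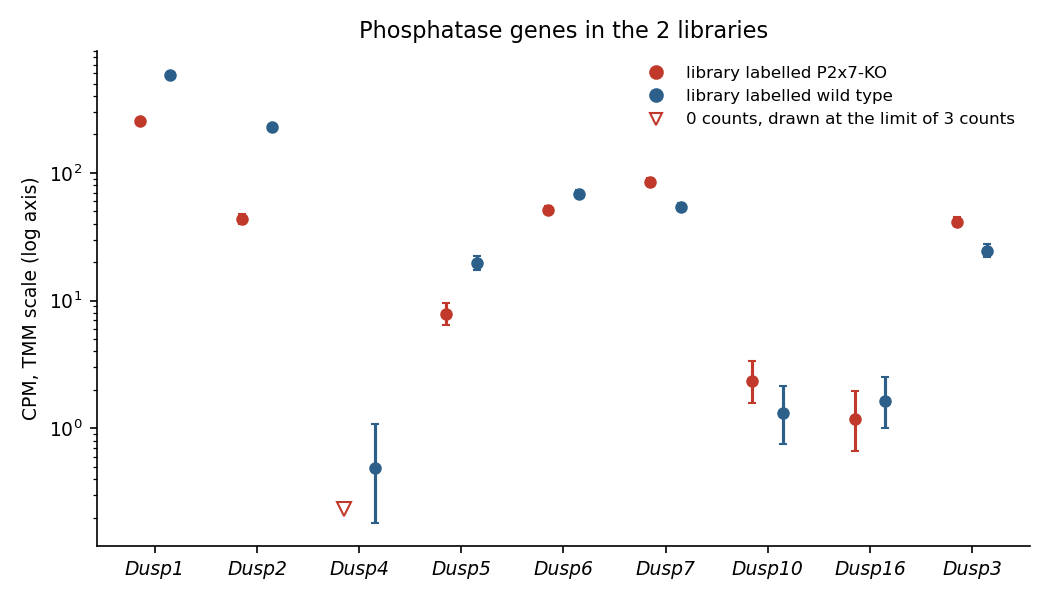
Level of each phosphatase gene in CPM on a log axis, in the P2x7-KO-labelled library (red) and the wild type-labelled library (blue), with exact 95% Poisson intervals. Dusp1, Dusp2 and Dusp5 sit lower in the P2x7-KO-labelled library and Dusp7 and Dusp3 higher; the open triangle marks the 0 counts of Dusp4 there, drawn at the limit of 3 counts.

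Dusp1 (MKP-1), on chromosome 17 from 26505591 to 26508472 (mm10, RefSeq gene table of GRCm38.p6), is an immediate early gene and the family's best known brake on p38 and JNK in myeloid cells. It had 3217 counts in the P2x7-KO-labelled library and 7151 in the wild type-labelled one, or 253 CPM (244 to 262) against 588 CPM (574 to 602). The P2x7-KO-labelled library was thus 2.33-fold lower (2.23 to 2.43). The intervals of the levels lie far apart, and 6.38% of genes counted had a lower ratio. The Dusp1 call depends on transcript length: its log2 ratio of -1.22 was -0.995 when corrected for length alone and -0.90 (-0.96 to -0.84) when corrected for length and GC content, both under 2-fold.

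Dusp2 (PAC-1), on chromosome 2 from 127336159 to 127338377, encodes a nuclear phosphatase found mainly in blood cells. Its counts were 555 in the P2x7-KO-labelled library and 2773 in the wild type-labelled library, levels of 43.6 CPM (40.0 to 47.4) and 228 CPM (219.6 to 237). The level was 5.23-fold lower (4.77 to 5.74), the lowest ratio of the members counted. A lower ratio was found for 1.14% of all genes counted. With the length and GC correction the gene was 3.65-fold lower (3.33 to 4.01). Within each library, where scaling cancels, there were 0.173 Dusp2 counts per Dusp1 count in the P2x7-KO-labelled library and 0.388 in the wild type-labelled one. The 2 genes therefore did not differ by the same factor: Dusp2 was a further 2.25-fold lower than Dusp1 (2.03 to 2.49), or -1.17 on the log2 scale and -0.97 with the length and GC correction.

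Dusp5, on chromosome 19 from 53529145 to 53541809, encodes a nuclear phosphatase that acts on ERK alone and is itself induced by ERK signalling. It had 100 counts in the P2x7-KO-labelled library and 240 in the wild type-labelled library, at 7.85 CPM (6.39 to 9.55) and 19.7 CPM (17.3 to 22.4). That is 2.51-fold lower (1.98 to 3.21), a ratio whose interval reaches just under 2-fold. Dusp5 stood 0.0311 per Dusp1 count in the P2x7-KO-labelled library and 0.0336 in the other, and the interval of that difference (0.723 to 1.18 as a ratio) includes equality. Corrected for length and GC content, Dusp5 was 2.04-fold lower (1.61 to 2.61).

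Dusp4 (MKP-2), on chromosome 8 from 34807610 to 34819894, is the fourth nuclear, inducible member. It was close to the detection limit, with 0 counts in the P2x7-KO-labelled library and 6 in the wild type-labelled one. By the limit of 3 counts a count of 0 allows up to 0.236 CPM in the P2x7-KO-labelled library, and its exact Poisson interval reaches 0.290 CPM, while the wild type-labelled library stood at 0.493 CPM (0.181 to 1.07). Set against that limit of 3 counts the P2x7-KO-labelled level was at least 2.09-fold lower, a value that leaves out the counting error of the 6 counts. With that error in, the nearer bound of the interval was 1.23-fold. With 6 counts in all, Dusp4 was not among the genes counted.

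The stretches before the start sites of Dusp1, Dusp2 and Dusp5 are shown because these genes were lower together and are textbook targets of signal-driven transcription factors. They are the 250 bases before the RefSeq start (GRCm38.p6), 5′ to 3′ on the gene's strand, at chr17:26508473-26508722 (minus strand), chr2:127335909-127336158 (plus) and chr19:53528895-53529144 (plus). Capitals mark the CArG box and the CRE half-site TGACG on either strand.
Dusp1: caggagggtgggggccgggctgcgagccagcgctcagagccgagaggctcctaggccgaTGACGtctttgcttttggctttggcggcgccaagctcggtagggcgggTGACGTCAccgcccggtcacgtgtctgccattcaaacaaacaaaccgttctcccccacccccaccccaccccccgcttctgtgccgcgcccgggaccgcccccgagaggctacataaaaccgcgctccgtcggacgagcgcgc
Dusp2: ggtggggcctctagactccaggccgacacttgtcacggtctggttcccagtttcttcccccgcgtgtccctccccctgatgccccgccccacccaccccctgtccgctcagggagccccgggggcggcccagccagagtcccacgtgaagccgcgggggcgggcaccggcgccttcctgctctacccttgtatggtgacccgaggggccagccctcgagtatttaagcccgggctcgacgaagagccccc
Dusp5: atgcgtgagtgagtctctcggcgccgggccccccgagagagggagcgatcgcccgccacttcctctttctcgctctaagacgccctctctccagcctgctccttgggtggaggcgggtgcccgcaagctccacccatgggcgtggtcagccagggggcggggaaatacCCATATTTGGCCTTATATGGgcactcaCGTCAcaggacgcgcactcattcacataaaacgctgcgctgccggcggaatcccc
Dusp1 was the member with a full CRE (TGACGTCA, which holds a half-site on each strand), 143 to 136 bases before the start, and with another half-site 191 to 187 bases before it. Dusp5 was the member with CArG boxes, the sequence that serum response factor binds, and it had 2 of them side by side, from 82 to 73 and from 72 to 63 bases before the start, with a CRE half-site from 55 to 51 bases before it. Dusp2 held neither, and 3 GC boxes (GGGCGG). A match is a description of the letters and not a bound site, and this search draws nothing about any factor from a stretch without one. All motifs were searched on both strands. Of 32851 promoter windows of the same length, 1.55% held the CRE, 17.8% a half-site, 1.47% a CArG box and 32.7% a GC box. Windows were at hand for 8 members, not for Dusp4, and of these 1 held the CRE, 3 a half-site (Dusp1, Dusp5 and Dusp16), 1 a CArG box and 6 a GC box. The TATA letters TATAAA were in 0 of the 8 and in 12.4% of all windows. The ETS letters CCGGAA were likewise in 0 of the 8 and in 12.03% of windows, and the AP-1 site TGANTCA in 0 and in 6.75%. Shorter and other forms of an ETS site were not searched.

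The cytoplasmic ERK phosphatases differed in direction. Dusp6 (MKP-3), on chromosome 10 from 99263231 to 99267489, is the classic feedback inhibitor of ERK, switched on by ERK activity. It had 653 counts in the P2x7-KO-labelled library and 831 in the wild type-labelled one, 51.3 CPM (47.4 to 55.4) against 68.3 CPM (63.7 to 73.1). The ratio was 1.33-fold lower (1.20 to 1.48), under the rule, and was 1.34-fold with the length and GC correction. Dusp7 (MKP-X), on chromosome 9 from 106368560 to 106375724, is its closest relative in location and target. Dusp7 had 1083 counts in the P2x7-KO-labelled library against 659 in the wild type-labelled one, at 85.0 CPM (80.1 to 90.3) against 54.2 CPM (50.1 to 58.5). It was 1.57-fold higher (1.42 to 1.73), and 1.88-fold higher (1.71 to 2.08) with the length and GC correction, still under 2-fold.

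Per length, Dusp7 stood above Dusp6 in the P2x7-KO-labelled library (67.4 and 46.7 TPM, counts per kilobase of the longest coding transcript scaled to 1000000) and below it in the wild type-labelled one (33.6 and 48.7 TPM). TPM was scaled to the sum within each library and not by TMM. It serves to compare genes within a library, and its ratios between the libraries differ from the folds given from CPM. There were 0.603 Dusp6 counts per Dusp7 count in the P2x7-KO-labelled library and 1.26 in the wild type-labelled library, a 2.09-fold lower ratio (1.81 to 2.41) that no scaling can move. Its log2 value of -1.06 became -1.33 with the length and GC correction. The summed counts of the pair were 1736 in the P2x7-KO-labelled library and 1490 in the wild type-labelled one, a ratio of 1.11 (1.04 to 1.19). In counts the sum thus differed less than either gene. Per length the sum stood at 114 TPM in the P2x7-KO-labelled library and 82.4 TPM in the wild type-labelled one. By that measure it differed more than Dusp6, so the likeness of the sums depends on the measure.

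The phosphatases that prefer JNK and p38 were scarce. Dusp10 (MKP-5), on chromosome 1 from 184034381 to 184075636, had 30 counts in the P2x7-KO-labelled library and 16 in the wild type-labelled one, at 2.36 CPM (1.59 to 3.36) and 1.32 CPM (0.752 to 2.14). Dusp16 (MKP-7), on chromosome 6 from 134715468 to 134807063, had 15 and 20 counts in those libraries, at 1.18 CPM (0.659 to 1.94) and 1.64 CPM (1.004 to 2.54). Both pairs of intervals overlap. The ratios were 1.79 (0.946 to 3.52) for Dusp10 and 0.717 (0.341 to 1.47) for Dusp16, so no difference was detectable at this depth. The intervals reach 3.52-fold higher for Dusp10 and 2.93-fold lower for Dusp16.

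Dusp3 (VHR), on chromosome 11 from 101971141 to 101987013, was higher in the P2x7-KO-labelled library. It had 528 counts there and 299 in the wild type-labelled library, levels of 41.5 CPM (38.0 to 45.2) and 24.6 CPM (21.9 to 27.5). The ratio of 1.69 (1.46 to 1.95) lies under 2-fold and was 1.41 (1.23 to 1.64) with the length and GC correction. Dusp3 and Dusp7 stood in nearly the same proportion in both libraries, 0.488 Dusp3 counts per Dusp7 count in the P2x7-KO-labelled library and 0.454 in the wild type-labelled one (ratio 1.07, 0.902 to 1.28). That likeness depends on the correction, since the log2 difference of 0.10 was -0.41 with the length and GC correction. Corrected for length alone, the log2 ratios stayed close, at 0.52 for Dusp3 and 0.63 for Dusp7.

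**Figure D2:**
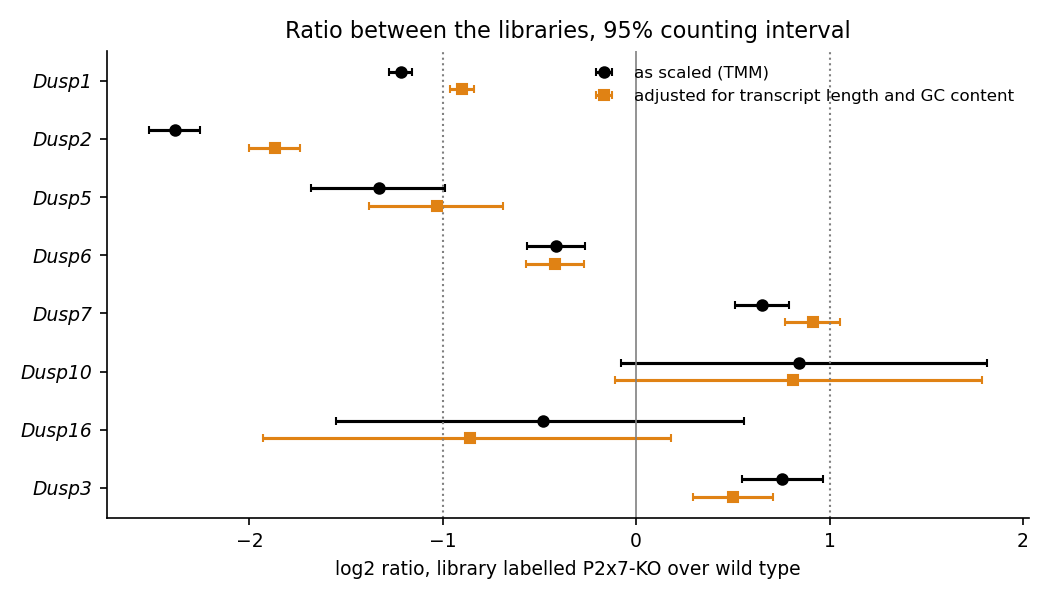
Log2 ratio of the P2x7-KO-labelled over the wild type-labelled library for the 8 members counted, with 95% counting intervals, as scaled (black) and corrected for transcript length and GC content (orange). Dotted lines mark 2-fold; Dusp2 and Dusp5 lie past -1 in both, Dusp1 only as scaled, and the intervals of Dusp10 and Dusp16 include 0.

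**Figure D3:**
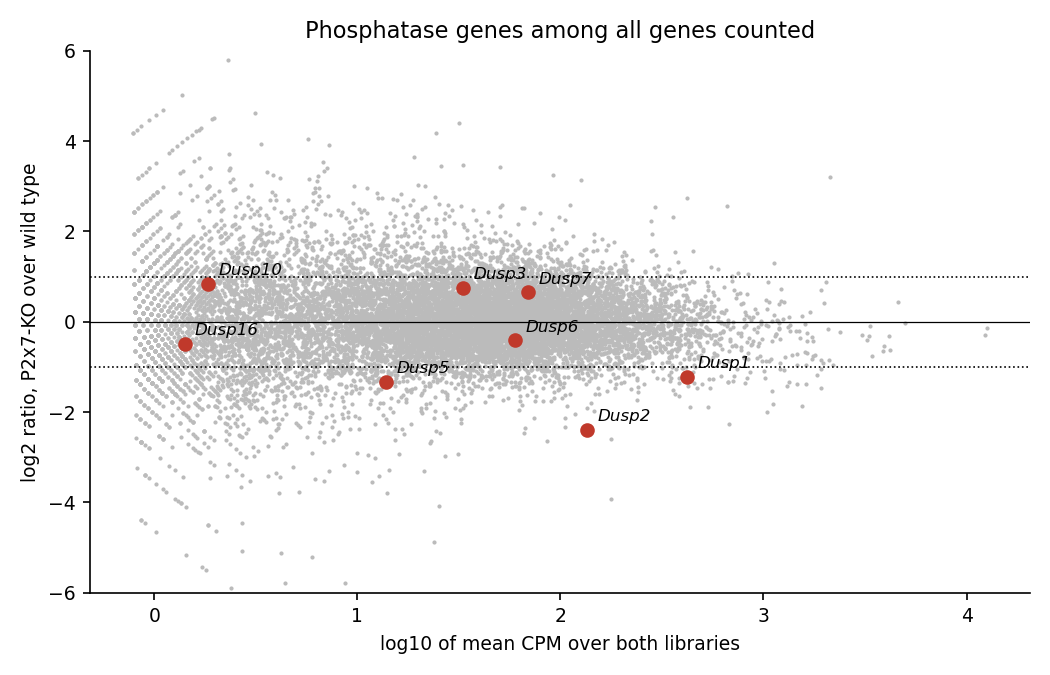
Log2 ratio against the log10 of mean CPM for 13344 genes counted (grey) and the 8 members counted (red); 16 genes at 0 in 1 library and 3 beyond 6 on the log2 scale are not drawn. Dusp2, at -2.39, lies at the lower edge of genes of its level, while Dusp6, Dusp7, Dusp3, Dusp10 and Dusp16 lie between the dotted 2-fold lines.

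Transcript length moved with these differences over the whole table. Genes with a transcript of 1500 to 2500 nucleotides, the class that holds Dusp2 (1617), Dusp1 (1990) and Dusp5 (2473), had a median log2 ratio of -0.20 over 2397 genes, and 7.51% of them were at least 2-fold lower. Genes of 3500 to 5000 nucleotides, the class of Dusp3 (4445), had a median of 0.25 over 2342 genes. The correction for length and GC content added 0.52 to the log2 ratio of Dusp2, 0.32 to that of Dusp1, 0.30 to that of Dusp5 and 0.26 to that of Dusp7, and moved that of Dusp3 by -0.25. What the length trend comes from was not tested.

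Per length, Dusp1 was the most abundant member in both libraries. In TPM, the order in the P2x7-KO-labelled library was Dusp1 at 323, Dusp2 at 68.7, Dusp7 at 67.4, Dusp6 at 46.7, Dusp3 at 23.8, Dusp5 at 8.09, Dusp10 at 2.15 and Dusp16 at 0.588, with Dusp4 at 0. Dusp2 and Dusp7 were not apart there, with intervals of 63.1 to 74.6 and 63.5 to 71.6. By other lengths they were apart in that library, with Dusp2 at 57.7 and Dusp7 at 84.8 TPM per coding length, and at 77.9 and 90.7 TPM per exon union length. In the wild type-labelled library the order was Dusp1 at 589, Dusp2 at 281, Dusp6 at 48.7, Dusp7 at 33.6, Dusp5 at 15.9, Dusp3 at 11.03, Dusp10 at 0.940, Dusp16 at 0.643 and Dusp4 at 0.359. The intervals of the last 3 overlap in that library. The place of Dusp3 depends on the length used as well: per coding length it stood at 94.3 TPM in the P2x7-KO-labelled library and 47.3 TPM in the other, above Dusp6 in the P2x7-KO-labelled library (56.6 TPM) and below Dusp6 in the wild type-labelled one (63.9 TPM).

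The make-up of the phosphatase transcripts differed between the libraries. By the longest coding transcript, Dusp1 held 59.8% of the members' summed TPM in the P2x7-KO-labelled library and 60.02% in the wild type-labelled one. Dusp2 held 12.7% against 28.6%, Dusp7 12.5% against 3.43%, Dusp6 8.64% against 4.96% and Dusp3 4.39% against 1.12%. Shares of counts are not divided by length, so longer transcripts weigh more in them. In counts, the share of Dusp2 was 8.98% (8.28 to 9.72, Clopper-Pearson) against 23.1% (22.4 to 23.9). That of Dusp7 was 17.5% (16.6 to 18.5) against 5.49% (5.09 to 5.92), and that of Dusp1 52.05% (50.8 to 53.3) against 59.6% (58.7 to 60.5). All 9 genes summed to 6181 counts in the P2x7-KO-labelled library and 11995 in the wild type-labelled one, 2.03-fold lower (1.97 to 2.10). The 7 genes other than Dusp1 and Dusp2, a split made after their values were seen, summed to 2409 against 2071 counts, a ratio of 1.11 (1.05 to 1.18). Per length those 7 summed to 149 TPM in the P2x7-KO-labelled library and 111 TPM in the wild type-labelled one, a wider difference.

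**Figure D4:**
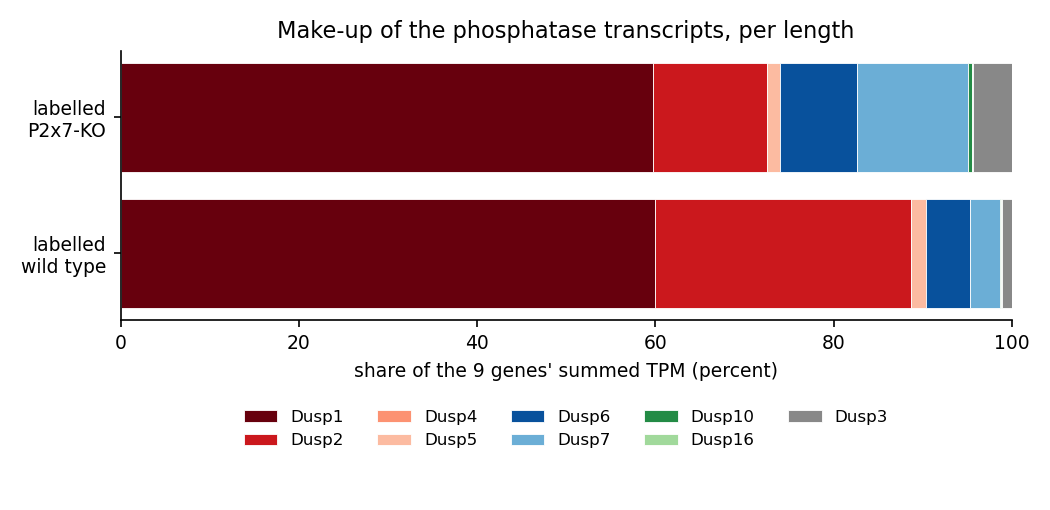
Share of each gene in the summed TPM of the 9 phosphatase genes, in percent, with the P2x7-KO-labelled library above the wild type-labelled one. Dusp1 takes 59.8% and 60.02%, Dusp2 12.7% and 28.6% and Dusp7 12.5% and 3.43%; Dusp4 and Dusp16 are too small to be seen.

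Features of the 3′ untranslated regions were read from GENCODE M21. Dusp1 and Dusp2 had regions of 690 and 581 nucleotides, each with 4 copies of ATTTA, the core of AU-rich decay elements. Over 10914 counted protein-coding genes the median was 1100 nucleotides and 1 copy, and 28.3% had 4 or more. Dusp3 also had 4 copies, in 3591 nucleotides, while Dusp5 had 1 in 1109, Dusp6 1 in 1189 and Dusp7 0 in 1778. Dusp10 and Dusp16 had 3 each and Dusp4 had 2.

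Relatives outside the list did not share one direction. Dusp9, the third cytoplasmic ERK phosphatase, had 100 counts in the P2x7-KO-labelled library and 114 in the wild type-labelled one (ratio 0.838, 0.634 to 1.11), and Dusp8 had 0 and 1. Of 18 atypical dual-specificity phosphatases and slingshot phosphatases, 12 were counted, with a median log2 ratio of -0.01. Among the 12, 3 were at least 2-fold higher, beside 10.8% of all genes counted, and 0 lower, beside 8.95%. Those higher were Dusp22, with 346 counts against 85 (3.89-fold, 3.06 to 4.99), the cofilin phosphatase gene Ssh2, with 2084 against 751 (2.65-fold, 2.44 to 2.89), and the laforin gene Epm2a, with 45 against 17 (2.53-fold, 1.42 to 4.71). With the length and GC correction Ssh2 came under 2-fold, at a log2 ratio of 0.73, and Dusp22 and Epm2a stayed past it, at 1.88 and 1.21. Of 9 other phosphatases known to act on MAP kinases, 8 were counted and 0 passed the rule in either direction. Among these Ptpn7, which encodes a haematopoietic tyrosine phosphatase of ERK and p38 and is named here after its value was seen, had 4261 against 6632 counts, 1.63-fold lower (1.57 to 1.69).

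Genes of the kinases that these phosphatases act on were looked at by the same rule. Of 11 MAP kinase genes, 8 were counted, with a median log2 ratio of 0.31. Among the 8, 0 were at least 2-fold higher, beside 10.8% of all genes counted, and 0 lower, beside 8.95%. Not counted were Mapk10, at 0 in both libraries, Mapk11 (0 against 6 counts) and Mapk12 (0 against 5). The ERK gene Mapk3 had 2267 counts in the P2x7-KO-labelled library and 2825 in the wild type-labelled one, a ratio of 0.767 (0.725 to 0.810). Its sign turned with the length and GC correction, to a log2 ratio of 0.04. Mapk14, the main p38 gene, had 918 counts against 448, or 1.96-fold (1.75 to 2.20), just under the rule. Of 7 MAP kinase kinase genes 0 passed the rule, with a median of 0.12, and likewise 0 of 10 kinases downstream of MAP kinases, with a median of 0.10. Beside those shares of all genes, nothing is read from a count of 0 in lists this small. Further up, the 13 counted MAP kinase kinase kinase genes had a median log2 ratio of 0.55. Among them 4 were higher, beside 10.8% of all genes counted, and 0 were lower, beside 8.95%. The 4 higher were Map3k8 (3.33-fold, 2.34 to 4.84), Map3k2 (3.23-fold), Braf (2.35-fold) and Map3k1 (2.34-fold). With the length and GC correction only Map3k8, which encodes the kinase TPL2 upstream of ERK in myeloid cells, was past 2-fold, at a log2 ratio of 1.64. Of 17 counted genes of RAS proteins, exchange factors, adaptors and GAPs, 4 were higher (Sos2, Gab1, Gab2 and Nf1) and 1 lower (Rasgrp2). Over all genes counted the shares were 10.8% and 8.95%. With the correction 1 was higher (Gab1) and 0 were lower, beside 8.34% and 4.74% of all genes with those values.

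Other genes listed as immediate early or as targets of MAP kinases were set beside Dusp1, Dusp2 and Dusp5. MAP kinase activity was not measured in these data. The 25 immediate early and other MAP kinase target genes, all counted, had a median log2 ratio of -1.08. Among them 14 were at least 2-fold lower in the P2x7-KO-labelled library, beside 8.95% of all genes counted, and 0 higher, beside 10.8%. Egr1 had 305 against 1804 counts (6.19-fold lower, 5.48 to 7.01), and by the nearer bound of the interval Fosb (4.83-fold lower), Jun (3.98-fold) and Ier3 (3.94-fold) came next. Once length and GC content were corrected for, 9 of the 25 were lower and 0 higher, beside 4.74% and 8.34% of all genes. The list was chosen with earlier results of these data known, so nothing is read from these shares. The ERK target Etv4, named after its value was seen, had 22 against 103 counts (4.90-fold lower, 3.07 to 8.16) and Etv5 102 against 206 (2.11-fold, 1.66 to 2.71). Among the targets that did not pass the rule, named after their values were seen, Myc had a ratio of 0.624, Ccnd1 0.877, Nr4a1 0.796 and Fosl2 1.64. The Sprouty and Spred genes, which like Dusp6 act as feedback inhibitors of the pathway, had 0 of 5 counted members past the rule. The ratio of Spry2 was 0.725 (0.608 to 0.864), from 230 against 303 counts. Spry4 had 0 against 8 counts. Of 6 counted genes of serum response factor and its partners, 2 were higher, beside 10.8% of all genes counted. They were Elk4 (3.15-fold, 2.63 to 3.79) and Mkl2 (2.06-fold, 1.77 to 2.41). Srf had 2597 against 3027 counts, a ratio of 0.820 (0.777 to 0.864). Once corrected, Elk4 was past the rule and Mkl2 was not, and the log2 ratio of Srf, -0.29 as scaled, turned to 0.35.

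Of 9 heat shock genes counted, 2 were at least 2-fold lower in the P2x7-KO-labelled library (Hspe1 and Dnajb1), beside 8.95% of all genes counted. Of the rest, 0 were higher, beside 10.8%, and 7 did not pass the rule. The median log2 ratio of the 9 was -0.75. Once corrected for length and GC content, 3 were lower (Hspa5, Dnaja1 and Dnajb1), beside 4.74% of all genes with those values. The part of the heat shock genes, and that of the monocyte and mast cell markers, in the difference of the phosphatase genes was not tested.

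**Figure D5:**
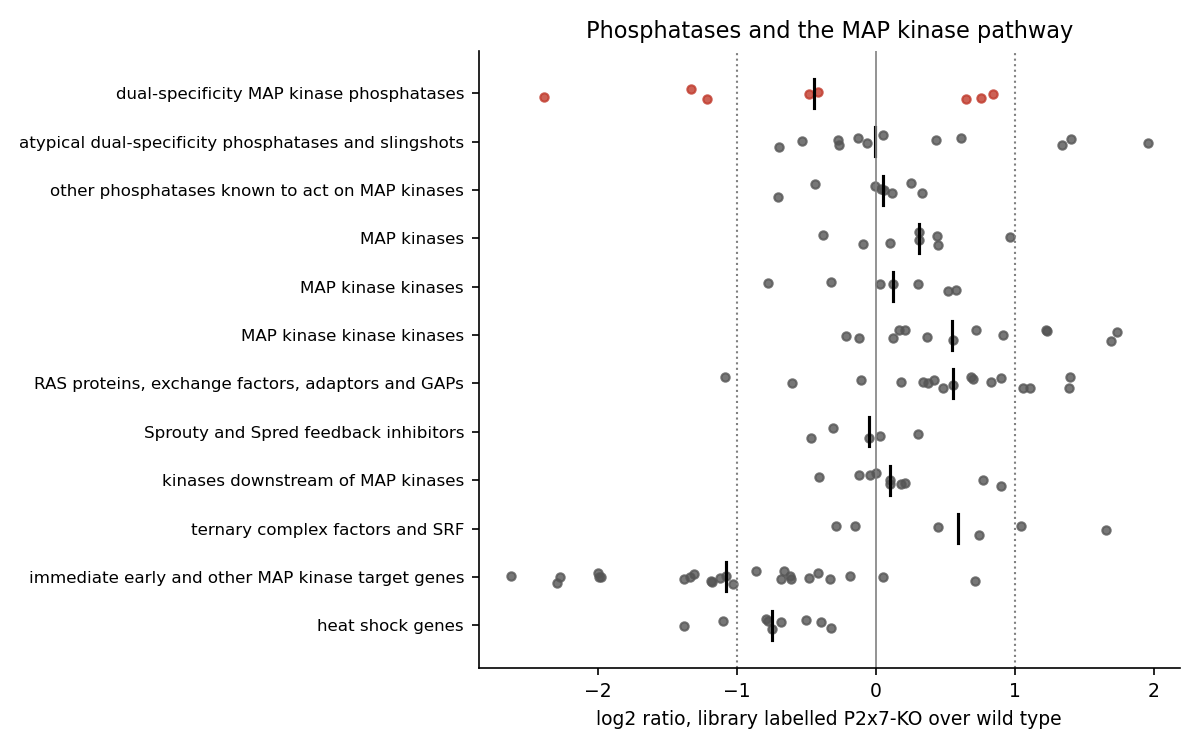
Log2 ratio of the P2x7-KO-labelled over the wild type-labelled library for each counted gene (points) of the phosphatase family (red, top row) and of 11 lists of the MAP kinase pathway and heat shock genes, with the median of each list as a bar. The family, with a median of -0.44, the immediate early list (-1.08), the heat shock list and the RAS list each have genes below the -1 line, while MAP kinases and their kinases stay between the dotted 2-fold lines.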

How the data were processed

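Both libraries were used. The authors deposited raw counts per gene. Per the submitters' processing notes, HISAT2 2.0.4 and mm10 were used. Not given in the sources used here are the counting program, the annotation, the strand setting and how reads matching several places were counted. By whole gene spans in GENCODE M21, Dusp1, Dusp3, Dusp5, Dusp10 and Dusp16 overlap a gene annotated on the opposite strand, so their values may hold reads of that partner. The shorter RefSeq spans given above for Dusp1 and Dusp10 do not reach those partners.

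Counts were scaled with TMM (edgeR 4.0.16, R 4.3.3), and 20 counts over both libraries was the minimum. Ratios carry Clopper-Pearson intervals and levels Poisson intervals (SciPy 1.17.1), at 95%. Reads are not independent molecules. Lengths and GC content came from GENCODE M21 by symbol, which covered 94.4% of counts in the P2x7-KO-labelled library and 93.8% in the other; a smooth trend of the log2 ratio over 10917 mRNA genes (mgcv 1.9.3) was subtracted for the adjusted values. List medians used 0.5 added to each count. The interval, the call and the adjustment were tested on simulated data. Promoter sequences are from RefSeq (GRCm38.p6).

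The 9 members and the gene lists (12 of pathways, 11 of markers) were chosen with earlier results of these data known. All members are named, and of each pathway list up to 4 genes in each direction past the rule, by the nearer bound of the interval; others are described as part of a list or as named after their values were seen. No gene is named for a pattern like a member's, since 2 libraries give 1 difference per gene. Alternatives were other scalings, count minimums, fold thresholds, added counts, lengths, and adjustments for length, GC content and mean expression.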

Additional observations from a re-analysis of the deposited data

How the results depend on the processing

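Dusp2 and Dusp5 were at least 2-fold lower under total count, DESeq2 1.42.0 and upper quartile scaling, without ribosomal protein and mitochondrial genes, and with each correction. Dusp1 was too, except when corrected for length (log2 ratio -0.995) and for length and GC content (-0.90). At a threshold of 3-fold 1 member, Dusp2, was lower, and at 1.5-fold 2 members, Dusp7 and Dusp3, were higher. With no filter on low counts Dusp4 joined those lower, for a count of 4. With the length and GC correction the genes at least 2-fold higher were 1 of the MAP kinase kinase kinases, 1 of the RAS list and 1 of the serum response factor list, and those lower were 0 of the RAS list and 9 of the immediate early list. Total count and DESeq2 scaling each put 1 MAP kinase past 2-fold. Scalings moved all log2 ratios by -0.03 to 0.07. Per exon union length, chosen after seeing the data, Dusp1 stood at 273 TPM in the P2x7-KO-labelled library and 498 TPM in the wild type-labelled one. Depth limits Dusp4, Dusp10 and Dusp16. No paired analysis was possible because each group holds 1 library and the labels carry no replicate numbers.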
